A study of Nitraria sibirica with 9 samples.

Results

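The 200 leaf clusters of Nitraria sibirica whose abundance varied least across 3 salt levels are described here as candidate reference transcripts. Clusters are groups of assembled transcripts that stand in for genes where a transcriptome was built without a genome. The 200 were selected on the deposited FPKM values, which scale fragments to cluster length and library size. Of the 31628 clusters in the series table, 11755 had a mean FPKM from 10 to under 500 over the 9 libraries. The 200 members were those with the lowest coefficient of variation (CV, the SD over the mean) among these 11755, or 1.70% of them. The library tables hold 126059 clusters in all. Their low CV is therefore the reason for the choice and not a finding.

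Nitraria sibirica is a salt-tolerant shrub, and the leaves came from seedlings raised in a greenhouse. The 3 groups received 0 mM, 100 mM or 400 mM NaCl, each for 3 days and each with 3 libraries. Salt was added in daily steps so that every level was reached at the same time, which means that the higher level also had a longer ramp. The labels number the replicates without saying whether they were separate plants, so the spread between libraries, and with it every p-value, may be technical.

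Reference transcripts are used to put measurements from different RNA samples on a common scale, since RNA input and the efficiency of reverse transcription differ from tube to tube. Quantitative PCR in plants has long relied on actin, tubulin, ubiquitin and elongation factor genes for this purpose. Salt first acts on a leaf as an osmotic stress and then through sodium and chloride that build up in the tissue, and transcripts of basic cell functions can shift with it. A transcript is useful as a reference only if its share of the RNA does not follow the treatment. In halophytes such as Nitraria, which take up salt and keep growing, these levels have to be measured and cannot be taken from glycophytes. The files used here do not pair clusters with gene names, so none of the 200 could be matched to a classical reference gene, and the leaf label could not be checked against marker genes.

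Total counts per library ran from 16502576 to 23932857 after rounding. The depth implied by the deposited FPKM followed the total count of each library to within a ratio of 0.997 to 1.003, so a cluster that is flat in FPKM is flat as a share of all counted reads. The 200 members together took between 1.54% and 1.62% of the counts of a library. Fitted TMM factors, which measure how a library's composition differs from the others, lay between 1.09 and 1.15 at 0 mM and between 0.882 and 1.005 at the salt levels. Replicate 1 of 100 mM (1.001) and replicate 1 of 400 mM (1.005) had the factors nearest to those of 0 mM.

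The cluster with the lowest CV was Cluster-23439.64642, 2917 bases long. It stood at 12.80, 13.16 and 12.73 FPKM at 0 mM, at 12.29, 12.59 and 13.09 at 100 mM, and at 13.18, 12.48 and 12.41 at 400 mM. Its highest library exceeded its lowest by 1.07-fold, and the 3 levels overlapped. The CV of 2.63% was below the 3.83% that counting alone would give for its mean of 692 reads, if each counted read is independent. It was the only member with a CV under its counting CV.

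Cluster-23439.52620, of 2431 bases and about 84 FPKM, came next with a CV of 3.31%. Its FPKM was 86.21, 85.16 and 81.62 at 0 mM, 81.80, 88.59 and 82.50 at 100 mM, and 80.16, 86.11 and 85.85 at 400 mM. Level means were 84.3 ± 2.40, 84.3 ± 3.73 and 84.0 ± 3.36 (SD, n = 3 each), so the levels differed by less than the libraries within a level. With a mean of 3744 reads its counting CV was 1.65%. It had the most reads of the 5 members with the lowest CV.

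Cluster-23439.40792, of 1857 bases, had a CV of 3.85% and did not keep the same order within its small spread. It stood at 31.50, 30.57 and 32.30 FPKM at 0 mM, 29.22, 29.96 and 29.07 at 100 mM, and 31.62, 30.24 and 31.94 at 400 mM. All 3 libraries at 100 mM lay below the other 6, at a mean of 29.4 ± 0.477 beside 31.5 ± 0.866 and 31.3 ± 0.903 (SD, n = 3 each). A low CV over all libraries thus still left room for a small difference between levels.

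Cluster-23439.49572 (1934 bases, CV 3.89%) had level means of 35.0 ± 1.22, 34.1 ± 1.34 and 35.1 ± 1.72 FPKM at 0, 100 and 400 mM (SD, n = 3 each), with libraries that overlapped. Cluster-23439.42004 (923 bases, CV 3.97%) was the steadiest member above 100 FPKM. Its level means were 125.7 ± 5.64, 121.3 ± 2.83 and 119.0 ± 4.34 FPKM (SD, n = 3 each), and the levels overlapped as well. Between them the first 5 members covered every abundance class, from 10 to 20 FPKM up to 100 to 500 FPKM.

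**Figure D1:**
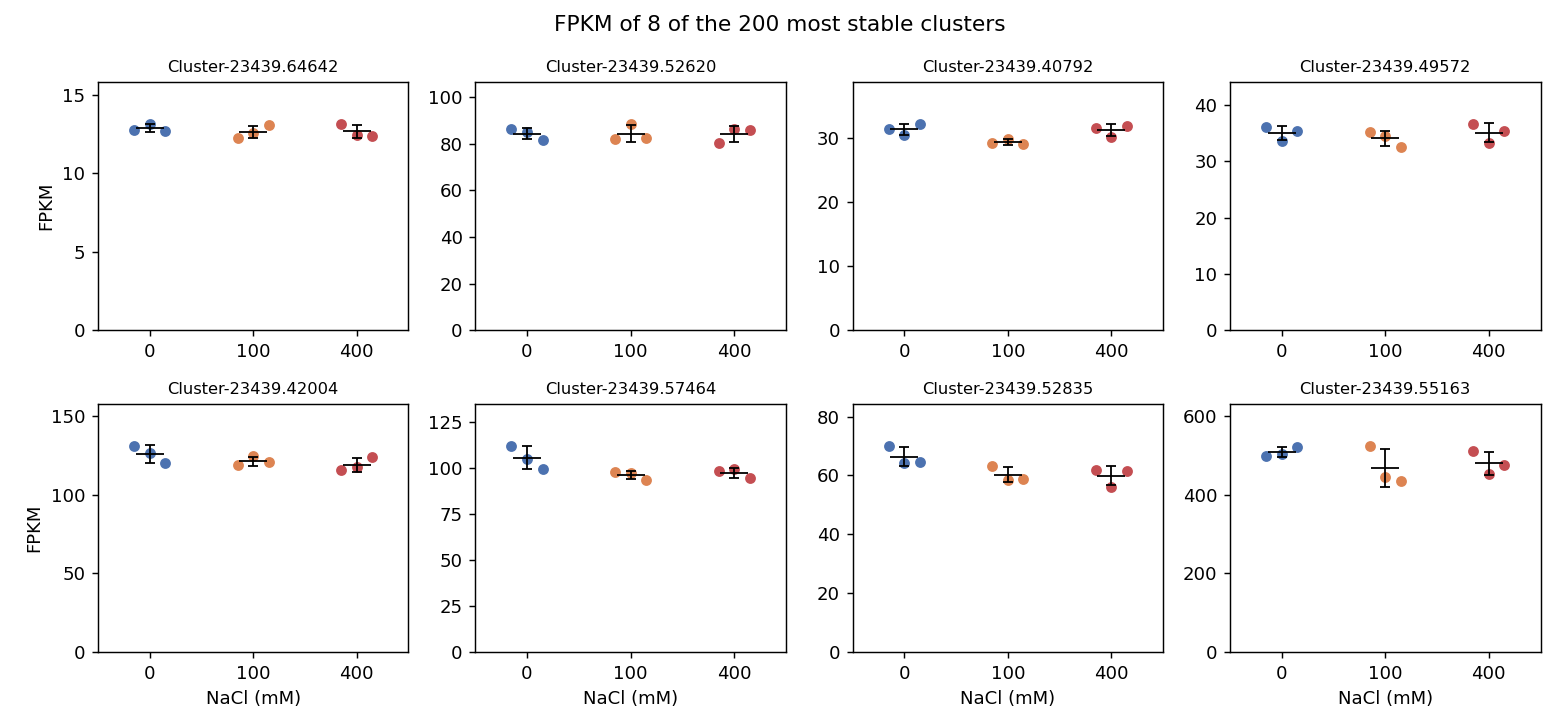
FPKM (vertical axis, from 0) at 0, 100 and 400 mM NaCl (horizontal axis) for named members. These are the 5 with the lowest CV and 3, starting with Cluster-23439.57464, that all 4 other scalings picked again. Points are libraries, bars are the mean and SD of 3 libraries. The means of Cluster-23439.57464, Cluster-23439.52835 and Cluster-23439.55163 are slightly higher at 0 mM, at 105, 66.4 and 508 FPKM, than at the salt levels. After division by the TMM factor (not drawn) their means are instead lowest at 0 mM, at 94.8, 59.8 and 458.

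Over all 200 members the CV ran from 2.63% to 7.87%, with a median of 6.71% beside 26.3% for the 11755 clusters of the same abundance range. Only 14 members had a CV under 5%. The last member, Cluster-23439.41030, had a CV of 7.872% and the first cluster left out, Cluster-23439.56172, one of 7.878%, so the boundary separates clusters that hardly differ. Cluster-23439.41030 was in fact uneven across levels. It stood at 95.48, 85.82 and 88.80 FPKM at 0 mM, 80.25, 72.73 and 84.13 at 100 mM, and 90.74, 87.06 and 92.05 at 400 mM, with no overlap between 100 mM and either other level.

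The highest library of a member exceeded its lowest by a median of 1.23-fold and by at most 1.34-fold. In the whole abundance range the median was 2.23-fold. For 48 members every library lay within 10% of the member's own mean. The highest level mean exceeded the lowest by a median of 1.08-fold and at most 1.16-fold.

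Spread among libraries of the same level made up most of the variation of the typical member. The CV within levels had a median of 6.38%, and differences between levels held a median of 27.9% of a member's sum of squares, beside 45.9% over the abundance range. This share ran from 0.24% to 87.8% among the members. The rule limited the spread over all 9 libraries, differences between levels included, so the contrast with the range is a description and no finding. The 3 levels take 25% of the degrees of freedom. Median CVs within a level were 4.97% at 0 mM, 5.53% at 100 mM and 5.89% at 400 mM. Level means were highest at 0 mM for 70 members, at 100 mM for 56 and at 400 mM for 74. The share with its highest mean at 0 mM was 35% of the members and 46.7% of the clusters in the range. For 100 mM these shares were 28% and 26.7%, and for 400 mM 37% and 26.5%.

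Some libraries were more often at the extremes. Replicate 1 of 400 mM was the highest of the 9 for 42 members and replicate 3 of 100 mM the lowest for 43. The same counts were not made over the range, so they cannot be called particular to the members. Member medians, as log2 deviations from each cluster's own mean, ran only from -0.03 in replicate 3 of 100 mM to 0.03 in replicate 1 of 400 mM. By level they averaged 0.00 ± 0.03, -0.01 ± 0.02 and 0.01 ± 0.03 (SD, n = 3 libraries each). Over the abundance range the same averages were 0.07 ± 0.04, -0.02 ± 0.05 and -0.00 ± 0.04, so that the typical cluster of like abundance took a larger share of the reads at 0 mM.

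Length and read number, which the rule did not use directly, differed between the members and the rest of the range. FPKM is computed from both, and its CV includes counting error, so neither is independent of the rule. Members had a median length of 1720.5 bases (409 to 6775) and the range one of 1350. Of the 1210 clusters under 500 bases, 1 was a member, and of the 2739 from 500 to under 1000 bases, 13 were. From 1500 to under 2000 bases the share was 3.20% (67 of 2097), and above 3000 bases it was 1.37% (13 of 952). The shortest member was Cluster-23439.55019, at 294 FPKM and 409 bases, and the longest Cluster-23439.65678, at 13.4 FPKM and 6775 bases.

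By read number the share of members went up from class to class, without the drop seen for the longest clusters. Members averaged a median of 1120 reads per library and the range 605. None of the 1978 clusters with a mean under 200 reads was a member, while 47 of the 1491 with at least 2000 reads were (3.15%). In 1619 clusters of the range (13.8%) counting alone would give a CV above the highest member CV, and 0 of these were members. With the counting part removed, the median CV was 5.87% for the members and 25.4% for the range. How far read number accounts for the choice of longer clusters was not tested.

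**Figure D2:**
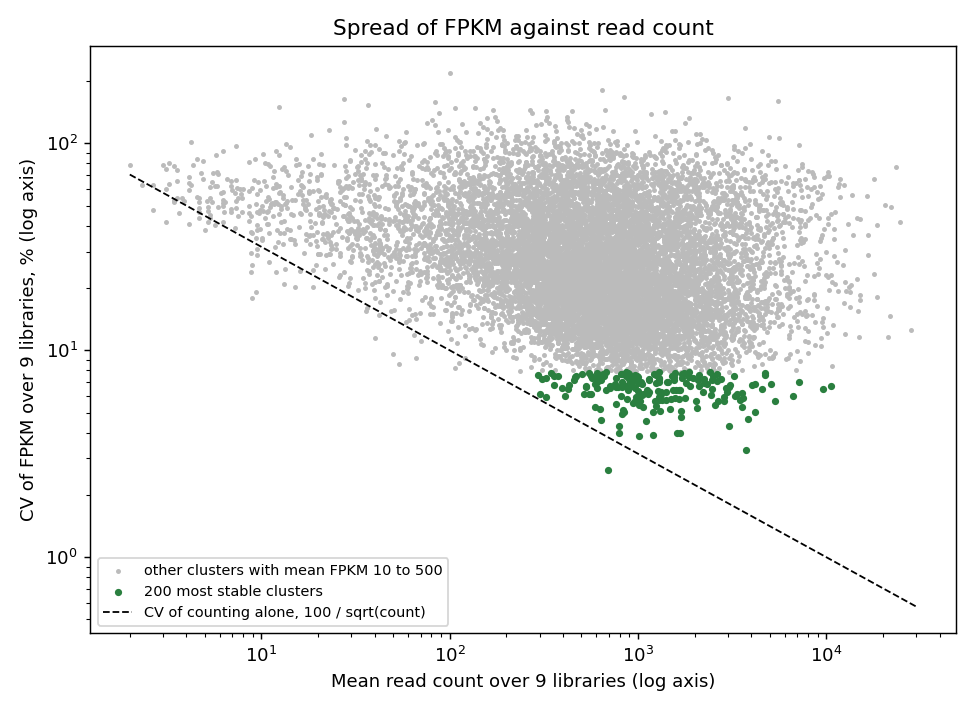
CV of FPKM over the 9 libraries in percent against mean read count per library, both on log axes, for the 200 members (green) and the other clusters with a mean FPKM of 10 to 500 (grey). The dashed line is the CV from counting alone; all members lie at or below 7.87%, none has a mean count under 200, and 1 lies under the line.

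By abundance, 47 members stood at 10 to 20 FPKM, 81 at 20 to 50, 47 at 50 to 100 and 25 at 100 to 500. These were 1.01%, 1.94%, 2.95% and 1.91% of the clusters in each class. The median CV of the class was 28.4% at 10 to 20 FPKM and 24.3% at 100 to 500 FPKM. All 200 members shared the number before the point of the cluster name, as did 11753 of the 11755 clusters in the range, so the component gives no contrast. In each library between 81.5% and 85.5% of members had a count that was not whole, beside 71.9% to 73.7% in the range. Counts that are not whole arise where reads are divided among sequences, so the level of a single member may include reads of a near-identical cluster.

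Stability was then measured in libraries that the ranking by CV had not used. The pool itself drew on all 9 libraries, since every cluster of the series table has more than 0.3 FPKM in each. Each library was left out in turn, the rule was applied to the other 8, and the left-out library was compared with their mean. Other libraries of its salt level stayed among the 8, so no salt level was new to the choice. Replicates may be technical, so the left-out library may not be independent of those. For the 200 clusters so picked, the median size of the log2 deviation ran from 0.08 for replicate 2 of 0 mM to 0.14 for replicate 2 of 100 mM, with a median of 0.11 over the 9 libraries. Over all clusters in the range it ran from 0.25 to 0.35. In each of the 9 libraries the picked clusters deviated less. They deviated more than the 200 members chosen with that library included, whose median deviation was 0.07. Between 104 and 141 of the 200 picked clusters came within 10% of the mean of the other 8, compared with 23.0% to 31.2% of all clusters in the range.

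**Figure D3:**
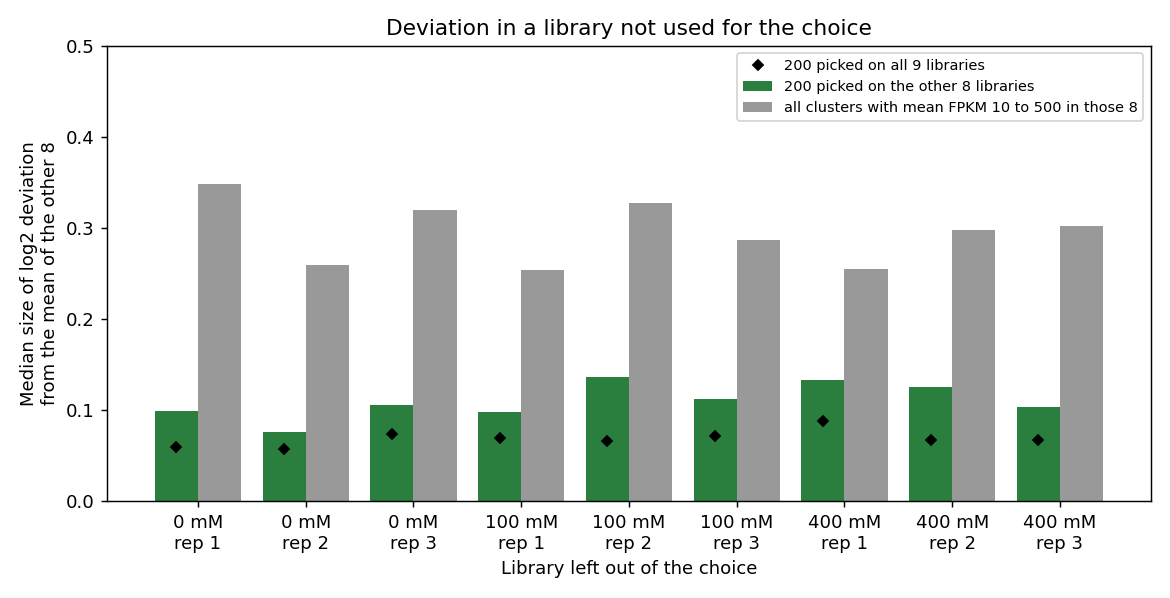
Median size of the log2 deviation of each library from the mean of the other 8 (vertical axis), for the 200 clusters picked without that library (green bars), all clusters of the range (grey bars) and the 200 picked on all 9 libraries (diamonds). Green bars run from 0.08 to 0.14 and grey bars from 0.25 to 0.35.

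Scaling for library composition changed the picture of the members. When FPKM was divided by the TMM factor, the median log2 deviation of the members was -0.18, -0.12 and -0.15 in the 0 mM libraries. It was -0.01, 0.16 and 0.15 at 100 mM and 0.03, 0.02 and 0.11 at 400 mM. All 0 mM libraries then lay below all salt libraries, and replicate 1 of 100 mM stood closer to 0 mM than the other salt libraries did. The range as a whole shifted in the same direction by less, from an average of -0.08 ± 0.04 at 0 mM to 0.09 ± 0.05 at 100 mM and 0.04 ± 0.04 at 400 mM (SD of 3 libraries). With it the median CV of the members went from 6.71% to 10.8%, and the CV was higher than in FPKM for 193 of the 200.

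Cluster-23439.64642, the flattest in FPKM, illustrates the shift. On the TMM scale it stood at 11.1, 12.1 and 11.7 at 0 mM, 12.3, 13.9 and 14.8 at 100 mM, and 13.1, 12.6 and 13.6 at 400 mM, and its CV was 9.16%. Its rank by CV went from 1 to 442 of 11755. The first 5 members ranked between 263 and 681 on this scale. No spike-in values were used here, so a constant and a changed amount of a member per cell cannot be told apart on either scale, nor can fewer cells of a type and less RNA per cell.

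**Figure D4:**
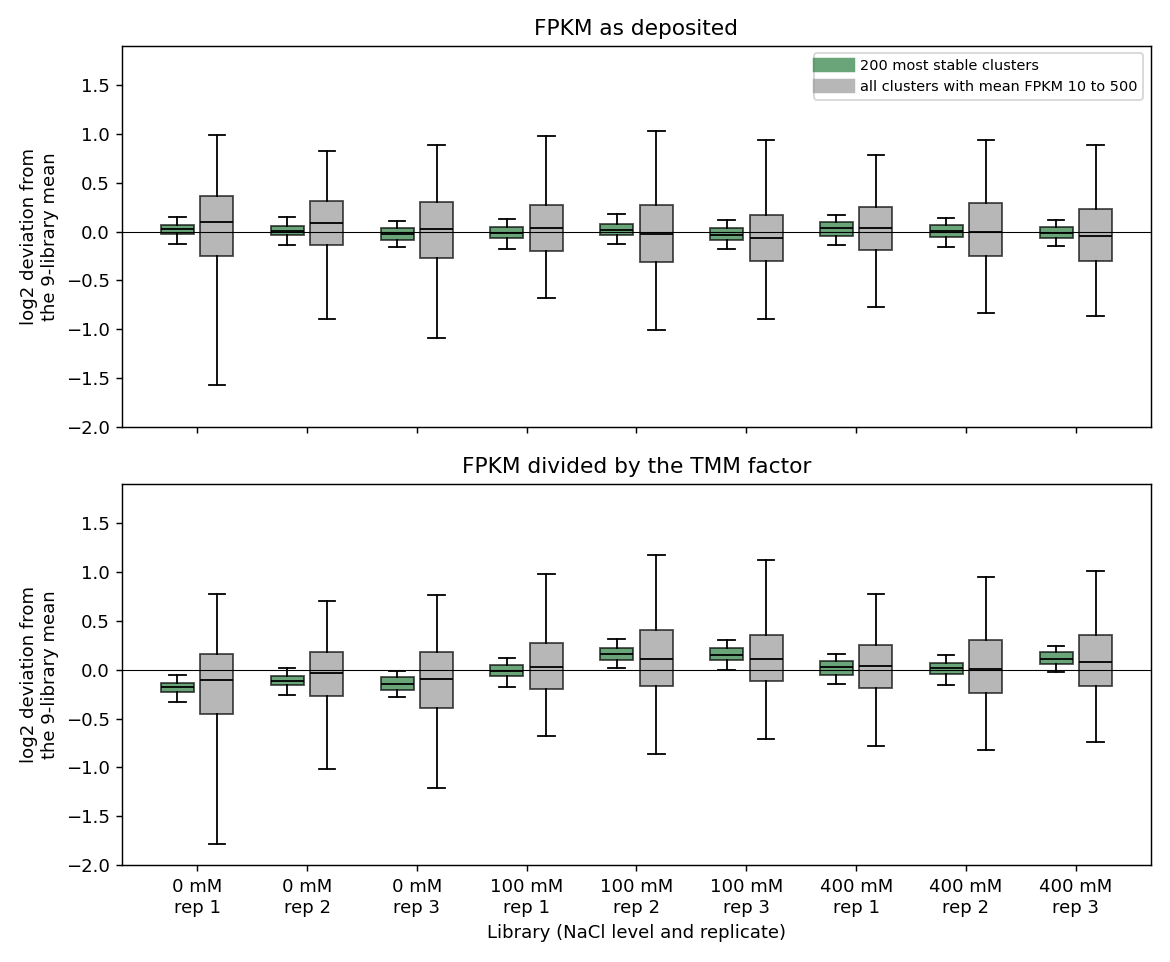
Log2 deviation of each cluster from its own mean over the 9 libraries (vertical axis), by library, for the 200 members (green) and all clusters with a mean FPKM of 10 to 500 (grey), on FPKM (top) and FPKM over the TMM factor (bottom). Boxes show quartiles and median, whiskers the 5th and 95th percentile; member medians stay within -0.03 to 0.03 in the top panel and go from -0.18 to 0.16 in the bottom panel.

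The count fit uses the same TMM factors, so it gave the same shift per cluster and is no separate support for it. The rule took clusters that were flat in FPKM. Factors that are higher at 0 mM than with salt therefore had to move most of them upward with salt. All 200 members passed the filter on low counts among the 56832 clusters tested by edgeR's quasi-likelihood test with TMM scaling. Each of the 200 was fitted above its 0 mM level at 100 mM, and the log2 differences had a median of 0.24 (0.04 to 0.42). At 400 mM all 200 were again higher than at 0 mM, by a median of 0.19 (0.00 to 0.38). The medians over the 11662 clusters of the range that passed the filter were 0.13 and 0.11, and over all clusters tested -0.06 and -0.02. Between 400 and 100 mM the member median was -0.05 (-0.25 to 0.15), the same as over the range. Scaled by library size alone, the member medians were -0.02, -0.01 and 0.02, and the medians over all clusters -0.31, -0.21 and 0.09. Library size is the scale that the rule used, so small member medians on it follow from the choice. Both salt comparisons use the same 0 mM libraries.

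No member passed an adjusted p of 0.05 in edgeR's quasi-likelihood test. The background was 0.5% of all clusters (284 of 56832) for 100 mM against 0 mM and 0% for 400 mM against 0 mM. It was also 0% for 400 mM against 100 mM. The 284 became 649 without replicate 1 of 400 mM, 172 without replicate 3 of 400 mM and at most 7 without any other library, and members called stayed at 0. The lowest adjusted p of a member was 0.158, 0.260 and 0.760 in these 3 comparisons by edgeR's quasi-likelihood test. At an unadjusted p under 0.05 there were 47 members at 100 mM (background 15.4%), 23 at 400 mM (background 13%) and 0 between the salt levels (background 7.02%). All 47 and all 23 were higher with salt, which is 23.5% and 11.5% of the members. Among tested clusters of the same abundance range, 27.1% and 24.8% had such a p in either direction, and 20.6% and 18.8% were higher. No member was lower with such a p, and none had such a p when scaled by library size alone. The rule used these libraries, so the counts describe the members and test nothing about them. The per-cluster biological coefficient of variation that edgeR estimated had a median of 0.212 over the members, beside a median CV of 6.38% within levels in FPKM. The quasi-likelihood fit does not take this per-cluster value, so it is given as a description only. How the spread used by the fit bears on the counts of members was not tested.

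DESeq2, with its own size factors, called 43 members higher at 100 mM, or 21.5% of them, where 3.13% of all clusters tested and 15.6% of those in the members' abundance range were called higher. It called 15 members higher at 400 mM, or 7.5%, where the same shares were 2.49% and 12.5%. Set beside clusters of like abundance, the members' share was thus above the background at 100 mM and below it at 400 mM, and nothing is read from either because the rule used these libraries. It called no member lower in either comparison, and none between 400 and 100 mM. The absence of calls in edgeR therefore did not hold with DESeq2.

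Libraries were also compared by group without a model, on FPKM, which the rule used, and on FPKM over the same TMM factors. The member counts follow largely from the rule and these factors, so they are a description and no separate support. On FPKM, the 100 mM libraries all lay above the 0 mM libraries for 8 members (background 14.5% of the range) and all below for 18 (background 21.8%). At 400 mM these were 21 members above (background 14.2%) and 17 below (background 19.4%). On the TMM scale 136 members lay above at 100 mM (background 25.6%) and 0 below (background 10.1%). At 400 mM 119 lay above (background 23.4%) and 0 below (background 10.1%).

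Members at the edges of the fitted range behaved as follows. Cluster-23439.83474 had the highest fitted difference at 100 mM, a log2 value of 0.42 with an edgeR adjusted p of 0.246. In FPKM it stood at 10.62, 11.51 and 9.39 at 0 mM, 11.79, 12.23 and 11.52 at 100 mM, and 11.09, 10.87 and 11.62 at 400 mM. Every 100 mM library lay above the 0 mM libraries, the lowest only just. Cluster-23439.72484 had the highest at 400 mM, 0.38 on the log2 scale with an edgeR adjusted p of 0.260. Its FPKM was 15.01, 15.70 and 14.82 at 0 mM, 15.20, 15.47 and 14.15 at 100 mM, and 17.37, 17.44 and 17.17 at 400 mM, so that only 400 mM stood apart.

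At the other edge was Cluster-23439.43367, with a fitted log2 difference of 0.04 at 100 mM and 0.07 at 400 mM (edgeR adjusted p of 0.919 and 0.861). In FPKM it stood at 97.00, 104.24 and 97.85 at 0 mM, 87.71, 90.55 and 81.13 at 100 mM, and 94.49, 89.87 and 92.27 at 400 mM. No salt library reached the 0 mM libraries, and yet on the TMM scale its CV was 5.88%, the 32nd lowest of the range. Cluster-23439.49985 had the smallest difference at 400 mM, 0.0006 on the log2 scale (edgeR adjusted p of 0.999), with FPKM means of 76.2 ± 3.59 at 0 mM and 67.1 ± 3.37 at 400 mM (SD of 3 libraries).

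Which clusters count as most stable therefore depended on the scaling. Of the 200 members, 23 were among the 200 lowest CVs after division by the TMM factor, 55 with median-of-ratios factors computed on FPKM, and 114 when FPKM was scaled to the same sum per library (TPM). The 200 clusters picked on the TMM scale had a median CV of 6.85% there and of 10.8% in FPKM. A measure free of library scaling, the mean SD of the log2 ratio to every other cluster in the range, kept 112 members. Other measures on the same scale kept 194 (SD of log2(FPKM + 1)), 196 (SD of log2(FPKM + 0.1)), 145 (counting variance removed), 81 (median absolute deviation over median) and 51 (range of the 3 level means). Leaving out a library kept between 141 and 169, and 116 members were kept in all 9 such choices.

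**Figure D5:**
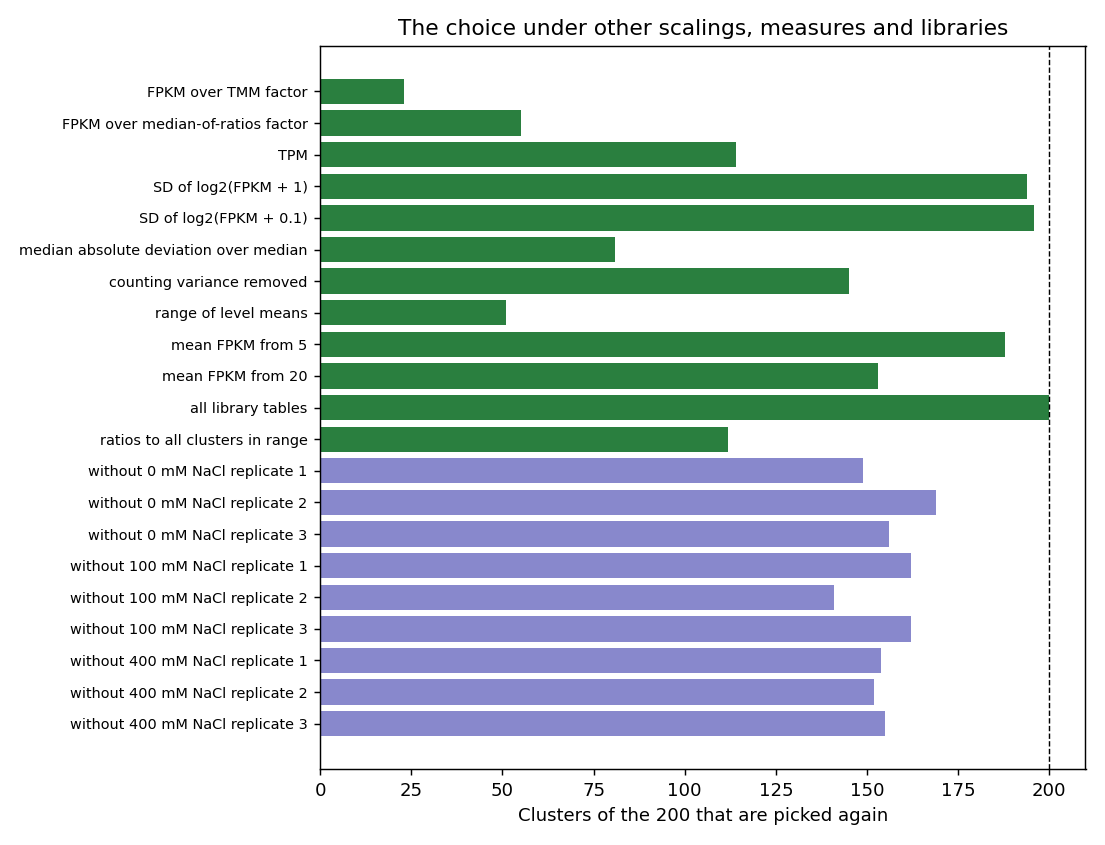
Number of the 200 members that are picked again (horizontal axis, from 0; the dashed line is 200) under other scalings, stability measures and abundance limits (green) and without each library in turn (blue). The TMM scale kept 23, and the choices without a library kept 141 to 169.

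A subset of 14 members was kept under all 4 other scalings (TMM, median of ratios, TPM and ratios to the range) and without any library. This subset was formed after the values were seen and is described without a test. It did not require a small range of level means, and most of the 14 were not kept by that measure. Differences between levels held from 3.14% to 74.0% of the sum of squares of these clusters, beside a median of 27.9% over all members. Its means ran from 16.1 to 485 FPKM, its CVs from 3.97% to 7.05% in FPKM and from 5.04% to 7.79% on the TMM scale. Fitted log2 differences ran from 0.09 to 0.22 at 100 mM and from 0.04 to 0.21 at 400 mM, so these clusters too lay on the raised side with TMM scaling.

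Cluster-23439.57464, of 1655 bases, had the lowest CV of all members on the TMM scale (5.04%), beside 5.67% in FPKM. Its FPKM was 111.94, 104.47 and 99.51 at 0 mM, 97.76, 97.05 and 93.46 at 100 mM, and 97.95, 99.36 and 94.24 at 400 mM. On the TMM scale it was 97.1, 95.8 and 91.5, then 97.7, 107.0 and 106.0, then 97.5, 100.0 and 103.0. In FPKM it was highest at 0 mM, with a mean of 105.3, and on the TMM scale lowest there, with a mean of 94.8 beside 103.6 and 100.1. On the TMM scale every salt library lay above the 0 mM libraries, the lowest only just.

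Cluster-23439.55163, of 970 bases, was the most abundant of the 14 and of all members. It stood at 498.64, 503.66 and 521.44 FPKM at 0 mM, 523.84, 445.46 and 433.99 at 100 mM, and 510.58, 452.26 and 475.68 at 400 mM. Replicate 1 of either salt level reached the 0 mM values and the other salt libraries lay below them. Cluster-23439.42071, of 1562 bases, is a mid-abundance case with level means of 31.9 ± 1.24, 30.2 ± 1.40 and 31.8 ± 1.92 FPKM (SD, n = 3 each), which overlapped. On the TMM scale its levels did not all overlap. The 0 mM libraries stood at 28.1 to 29.6 there, and all salt libraries stood higher, at 31.5 to 33.5.

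Ratios between members do not depend on how libraries are scaled, and quantitative PCR with several references rests on them. Over the 19900 pairs of members the SD of the log2 ratio across libraries had a median of 0.13 and ran from 0.02 to 0.22. The rule chose clusters with low CVs, so low SDs of their ratios follow from the choice and are no finding. Cluster-23439.64642 had the lowest mean SD to the other members (0.10) and Cluster-23439.47135 the highest (0.16). The latter stood at 8.96, 10.12 and 11.07 FPKM at 0 mM, 10.19, 10.34 and 11.10 at 100 mM, and 9.25, 10.78 and 11.06 at 400 mM. Its libraries differed more within each salt level than its level means of 10.1, 10.5 and 10.4 FPKM did.

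The tightest pair was Cluster-23439.52543 and Cluster-23439.34735, of 2518 and 2600 bases, with an SD of 0.02 on the log2 scale. The first stood at 19.75, 20.05 and 19.41 FPKM at 0 mM, 17.41, 19.87 and 20.25 at 100 mM, and 21.39, 22.71 and 20.43 at 400 mM. Its partner stood at 46.55, 45.46 and 45.30, then 39.84, 45.74 and 47.29, then 48.39, 52.85 and 47.06. Both were lowest in replicate 1 of 100 mM and highest in replicate 2 of 400 mM, so neither is among the flattest members and yet their ratio hardly moved. Independent counting alone would give a log2 SD of 0.06 for this pair, whose observed SD is the smallest of 19900 and so was picked for its low value. Whether reads divided between these clusters enter their ratio was not tested.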

How the data were processed

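Per the file headers, the authors deposited for each of the 9 libraries an estimated read count (expected count) and an FPKM per cluster, and for the series a table of FPKM and cluster length. Its 31628 clusters have more than 0.3 FPKM in every library, and 0 of its values differ from those of the library tables. The submitters' processing notes name Bowtie2 2.0.6 and TopHat2 2.0.9. Not given in the sources used here were the assembler, the counting tool and the strand setting.

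CVs used FPKM as deposited, with no pseudocount. Counts were rounded and tested across all clusters with edgeR 4.0.16 in R 4.3.3 (TMM, filterByExpr, default quasi-likelihood fit, salt level as 3 groups in 1 fit of all 9 libraries), with Benjamini-Hochberg adjustment and a threshold of 0.05. DESeq2 1.42.0 and limma 3.58.1 were alternatives. The counting CV takes counts as Poisson and covers counting error only. Spread labels with n = 3 are SDs over libraries. Scripts were tested on simulated data. Members and lists were chosen with earlier results of these data known. Clusters named are the 5 lowest CVs, the lowest CV per abundance class, ranks 200 and 201, and the extremes of fitted difference, length and ratio. Also named, and chosen after their values were seen, are 4 of the 14 members kept under all 4 other scalings and without any library.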

Additional observations from a re-analysis of the deposited data

How the results depend on the processing

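The calls among members, 0 in each comparison by edgeR's quasi-likelihood test, became 43 at 100 mM and 15 at 400 mM with DESeq2 and were 0 in every other fit run. With the replicate block (replicate number as a block) they were 0 in all 3 comparisons, while calls over all clusters went from 284 to 601 at 100 mM and from 0 to 83 at 400 mM. Deviations of same-numbered libraries correlated at -0.01 to 0.17, with a mean of 0.04. Those of differently numbered libraries correlated at -0.11 to 0.06, with a mean of -0.02. The highest value was that of replicate 1 of 100 mM and replicate 1 of 400 mM. Whether the numbers mark pairs or batches was not tested. Calls over all clusters at 100 mM were 1103 with the newer adjusted deviances, 1870 and 1428 with limma on log2(FPKM + 1) and log2(FPKM + 0.1), 6178 with DESeq2, 138 with library size alone, 84 (65 higher, 19 lower) with scaling by the members, and 0 to 649 without a library. At 400 mM, DESeq2 gave 4608.

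The number of members kept was 23 (TMM), 55 (median of ratios), 114 (TPM), 81 (median absolute deviation), 51 (range of level means) and 112 (ratios, added after seeing the data). It was 145 or more under the other measures and abundance limits, and 141 to 169 without a library. The median CV was 10.8%, 9.03% and 7.78% with TMM, median of ratios and TPM.

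The median log2 difference at 100 mM, 0.236 with TMM, was -0.024 with library size alone, -0.015 with limma at either pseudocount, -0.0048 with scaling by the members and 0.304 with no filter (both added later), and 0.223 to 0.303 without a library. At 400 mM, from 0.186, it was -0.0079, -0.0017, -0.0018, -0.0034 and 0.253, and 0.171 to 0.223. Between salt levels, from -0.049, it was 0.018, 0.014, 0.015 and 0.0016 with the first 4, and -0.106 to -0.013 without a library. The fits by library size and by the members differ from the TMM fit in scaling alone. Scaling by the members uses their own counts, so it holds their median difference small by construction. Library size and FPKM are the scale that the rule used, so small member medians there follow from the choice. For the other changes the cause was not tested. The left-out deviation was 0.105 in FPKM and 0.115 on the TMM scale. Counting error alone exceeds the highest member CV in 1619 clusters of the range, and its part in the choice was not tested.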
